A study of Mus musculus with 38 samples.

Results

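Binding of SOX2, HSF1 and HSF2 was examined at 10 mouse genes that set DNA methylation or act in Polycomb repression: Dnmt1, Dnmt3a, Dnmt3b, Dnmt3l, Tet1, Tet2, Uhrf1, Jarid2, Ezh2 and Mtf2. A site was given to a gene when its interval overlapped the body of the gene or came within 20 kb of one of its transcript starts (mm10, GENCODE M21 basic annotation). By this rule 37 of the 18942 distinct intervals in the 3 site lists belonged to the 10 genes: 31 of 15081 SOX2 sites, 4 of 1726 HSF1 sites and 2 of 2135 HSF2 sites. All 10 genes had a SOX2 site. HSF1 sites lay at Dnmt1, Tet2, Uhrf1 and Jarid2, and HSF2 sites at Uhrf1 and Jarid2. Dnmt3a, Dnmt3b, Dnmt3l, Tet1, Ezh2 and Mtf2 had neither an HSF1 nor an HSF2 site, and Dnmt1 and Tet2 had no HSF2 site. A SOX2 site by the same rule was present at 34.6% of all 21951 annotated protein-coding genes, an HSF1 site at 9.75% and an HSF2 site at 14.2%. The rule counts any site in the gene body, so a long gene has more room for one. The 10 genes spanned 20.2 kb (Uhrf1) to 191 kb (Jarid2), and a comparison with genes of similar length was not made.

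The cells were JM8, a line of mouse embryonic stem cells, and the assay was spike-in normalized CUT&Tag, in which a transposase tethered to an antibody cuts the DNA beside the bound protein. Endogenous SOX2, HSF1 and HSF2 were profiled in wild type cells that were either asynchronous (A) and untreated, or mitotic (M), detached by shake-off after 6 h in nocodazole, a tubulin inhibitor, at 50 ng/ml. Full-length Halo-HSF2, with an antibody to its HA tag or to HSF2, and Halo-H2DBD, the DNA-binding domain of HSF2, with the HA antibody, were profiled in both phases in Hsf2-/- cells, a knockout line grown from single colonies, where the constructs were stably overexpressed from integrated Piggybac transgenes. Each condition had 2 libraries, but the deposited values are 1 mean of both. These values carry neither the spread between libraries nor the depth, so no difference between A and M was tested here. Values are means of scaled coverage per base over an interval, so sites of different width share a unit. A wide interval can also average over its flanks, so levels and ranks may still depend on width. Changes are given as log2 M/A, the log2 ratio of the mitotic to the asynchronous signal, for sites above 0 in both. In a population of cells, binding in fewer cells and weaker binding in every cell give the same value. Of 6 loci active in embryonic stem cells (Pou5f1, Nanog, Sox2, Esrrb, Klf4 and Tfcp2l1), all carried a site of the SOX2 list, which came from the literature. Those of Pou5f1, Nanog and Esrrb included one in the top 10% of the SOX2 list in A. The best ranks in A at Sox2 and Tfcp2l1 were 3599 and 5208, and the Klf4 site was listed at 0 in A and 2.74 in M.

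DNMT1 copies methylation onto newly made DNA strands, guided by UHRF1, which recognizes hemimethylated sites. DNMT3A and DNMT3B add methylation at unmethylated sites, DNMT3L is their catalytically inactive partner, and TET1 and TET2 oxidize methylcytosine towards its removal. EZH2 is the catalytic subunit of Polycomb repressive complex 2 (PRC2), which methylates histone H3 at silent genes, and JARID2 and MTF2 are accessory subunits that help bring PRC2 to its targets. SOX2 is a pluripotency factor that binds DNA through an HMG domain, often beside OCT4. HSF1 and HSF2 are the heat shock factors, best known for their action at chaperone genes.

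The sequences below come from the sites on which the results turn: the 5 sites with the strongest SOX2 signal in A, the start site of Mtf2, a strong site in Tet1 and the site with the deepest fall at Ezh2 among those wider than 24 bp. Each is the middle of the interval, at most 200 bases, on the plus strand of GRCm38 (mm10). Capitals mark the SOX core motif, CATTGT or CTTTGT on either strand, and in the Mtf2 intron also the octamer ATGCAAAT, the motif of OCT4, which here stands on the minus strand.
Mtf2 intron, chr5:108076787-108076986: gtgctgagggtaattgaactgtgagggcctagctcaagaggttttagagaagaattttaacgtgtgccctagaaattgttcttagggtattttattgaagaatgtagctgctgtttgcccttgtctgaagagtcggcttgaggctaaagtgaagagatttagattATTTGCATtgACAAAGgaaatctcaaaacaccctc
Jarid2 upstream, chr13:44728592-44728791: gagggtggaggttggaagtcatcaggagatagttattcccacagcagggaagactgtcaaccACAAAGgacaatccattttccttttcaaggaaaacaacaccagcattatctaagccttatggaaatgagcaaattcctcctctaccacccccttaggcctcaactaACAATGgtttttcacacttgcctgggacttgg
Jarid2 upstream, chr13:44722230-44722429: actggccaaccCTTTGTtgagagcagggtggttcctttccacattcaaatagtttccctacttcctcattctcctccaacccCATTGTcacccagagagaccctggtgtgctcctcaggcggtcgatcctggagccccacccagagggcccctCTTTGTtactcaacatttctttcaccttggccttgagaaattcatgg
Tet2 intron, chr3:133534146-133534345: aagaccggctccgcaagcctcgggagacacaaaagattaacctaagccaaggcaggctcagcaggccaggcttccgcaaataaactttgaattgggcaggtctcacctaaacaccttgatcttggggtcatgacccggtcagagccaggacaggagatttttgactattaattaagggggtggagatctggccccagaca
Tet2 intron, chr3:133524721-133524920: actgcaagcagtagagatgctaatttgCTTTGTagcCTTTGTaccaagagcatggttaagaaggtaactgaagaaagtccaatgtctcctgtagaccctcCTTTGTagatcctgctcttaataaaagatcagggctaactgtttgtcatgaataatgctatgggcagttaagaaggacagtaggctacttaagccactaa
Mtf2 start, chr5:108065462-108065661: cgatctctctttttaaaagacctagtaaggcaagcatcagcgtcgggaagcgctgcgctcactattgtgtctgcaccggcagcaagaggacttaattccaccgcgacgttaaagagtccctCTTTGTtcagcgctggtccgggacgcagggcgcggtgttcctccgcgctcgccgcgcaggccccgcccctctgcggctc
Tet1 intron, chr10:62865395-62865468: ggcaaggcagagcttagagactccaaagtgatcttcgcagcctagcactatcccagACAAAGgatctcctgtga
Ezh2 upstream, chr6:47608366-47608565: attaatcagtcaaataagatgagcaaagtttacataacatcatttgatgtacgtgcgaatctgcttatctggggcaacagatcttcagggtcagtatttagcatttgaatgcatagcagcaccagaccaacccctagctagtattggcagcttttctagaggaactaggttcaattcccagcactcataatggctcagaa

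The Mtf2 intron held an octamer and a SOX core separated by 2 bases, in the run ATTTGCATTGACAAAG (chr5:108076952-108076967). The octamer was searched for after this sequence had been seen. Windows of 200 bp about the site middles held it at 2 of the 31 sites, the other being a narrow Tet1 site, and at 7.79% of all SOX2 sites. CATTGT was found in the windows of 9 of the 31 sites against 28.2% of the list, CTTTGT in 15 against 38.1%, and either core in 19 against 56.4%. The OCT-SOX composite motif in its standard spacing, which joins the last letters of a core to most of the octamer, was in none of the 31 windows and in 1.26% of the list. Outside its window, the interval of the Tet2 site starting at 133517846 held 1 composite motif and 1 octamer. Among the sequences shown, the Tet2 sequence at 133524721 held 3 copies of CTTTGT, while the other strong Tet2 site and the Ezh2 site held neither core in these windows. A motif match here is a description of the letters in a window.

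At 22 of the 29 SOX2 sites of these genes that were above 0 in both phases, the signal in M stayed within a factor of 2 of that in A. The median log2 M/A over these 29 sites was -0.06, against 0.34 for all SOX2 sites. Mitotic signal was the higher at 12 of the 29, where 63.4% of the 14264 sites with a ratio were higher in M. At 4 of them log2 M/A was at or above 1 (26.8% of all sites), and at 3 it was at or below -1 (10.0% of all sites). The values ran from -2.67 to 2.49. The quartile of SOX2 sites weakest by the mean of A and M, among those with a ratio, had a median of 0.27, and 4 member sites that were higher in M stood below that level. The median signal of the 31 sites was 13.3 in A and 14.5 in M, against 8.74 and 10.7 for the whole list. In A 24 of the 31 stood above the list median, and in M 17 did. The rank improved from A to M at 9 sites and fell at 22. The member sites were also wider than the list, with a median of 324 bp against 224 bp.

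**Figure D1:**
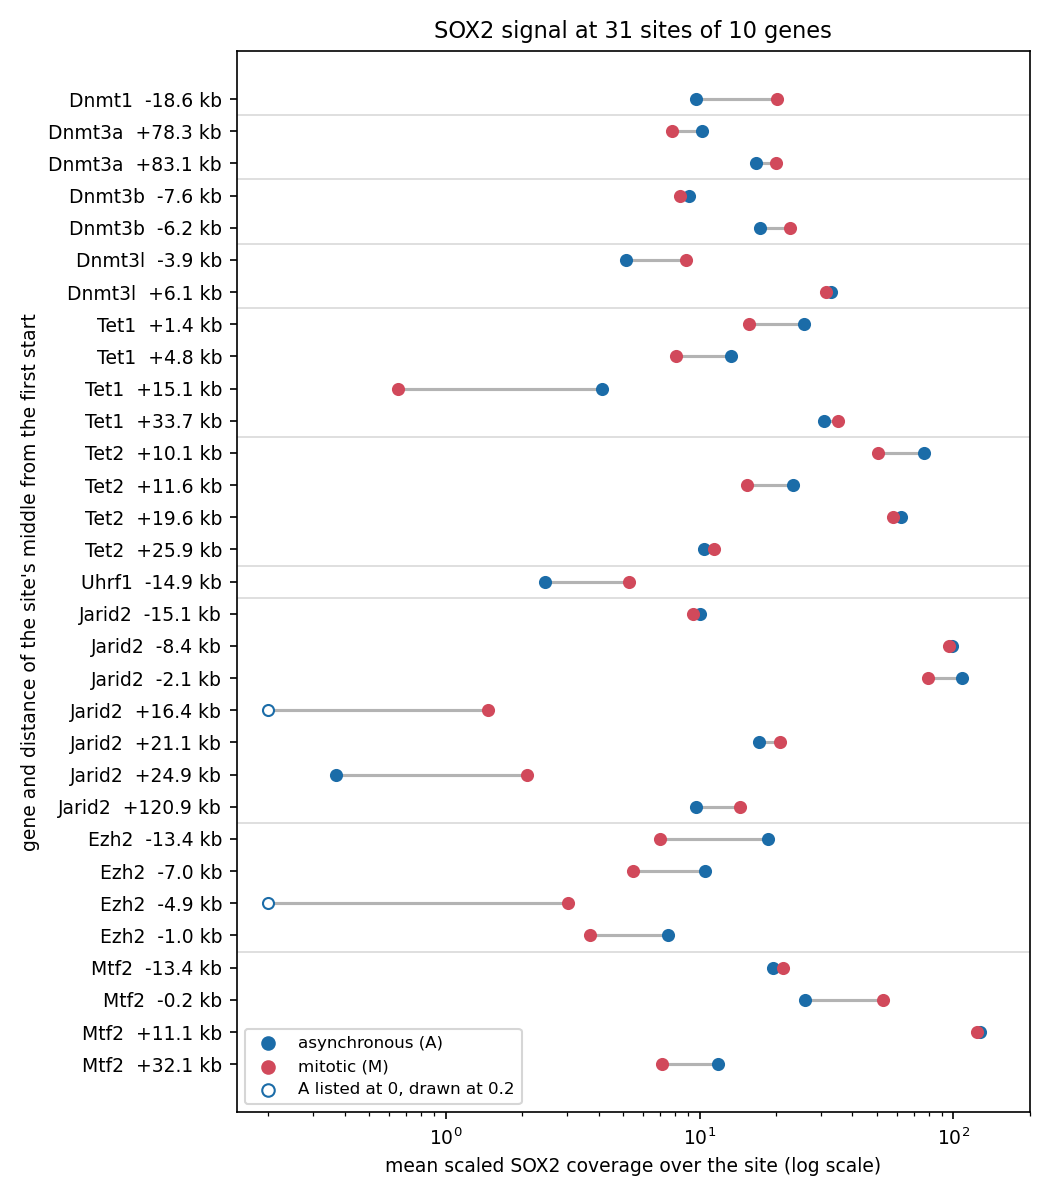
SOX2 signal (mean scaled coverage, log axis) at each of the 31 sites in asynchronous (blue) and mitotic (red) cells, labelled by gene and by the distance of the site's middle from the first transcript start. Each point is the authors' mean of 2 libraries, so there are no error bars, and an open circle at 0.2 stands for the 2 sites listed at 0 in A. At the 5 strongest sites, of Mtf2, Jarid2 and Tet2, log2 M/A is between -0.60 and -0.04, while the points separate most at narrow or weak sites of Tet1, Jarid2 and Ezh2.

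Of the 31 SOX2 sites, 17 lay within introns only, 13 lay upstream of the gene and 1 lay over a start, that of Mtf2. The interval came within 5 kb of a start at 10 sites, and it lay beyond 20 kb from any start, inside the gene, at 5. The nearest protein-coding start belonged to another gene at 2 of the SOX2 sites, those at Dnmt1 and Uhrf1. Jarid2 held 7 of the 31 sites, so a median over sites gives it most weight. The median over the 10 genes of each gene's median log2 M/A was 0.08.

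**Figure D2:**
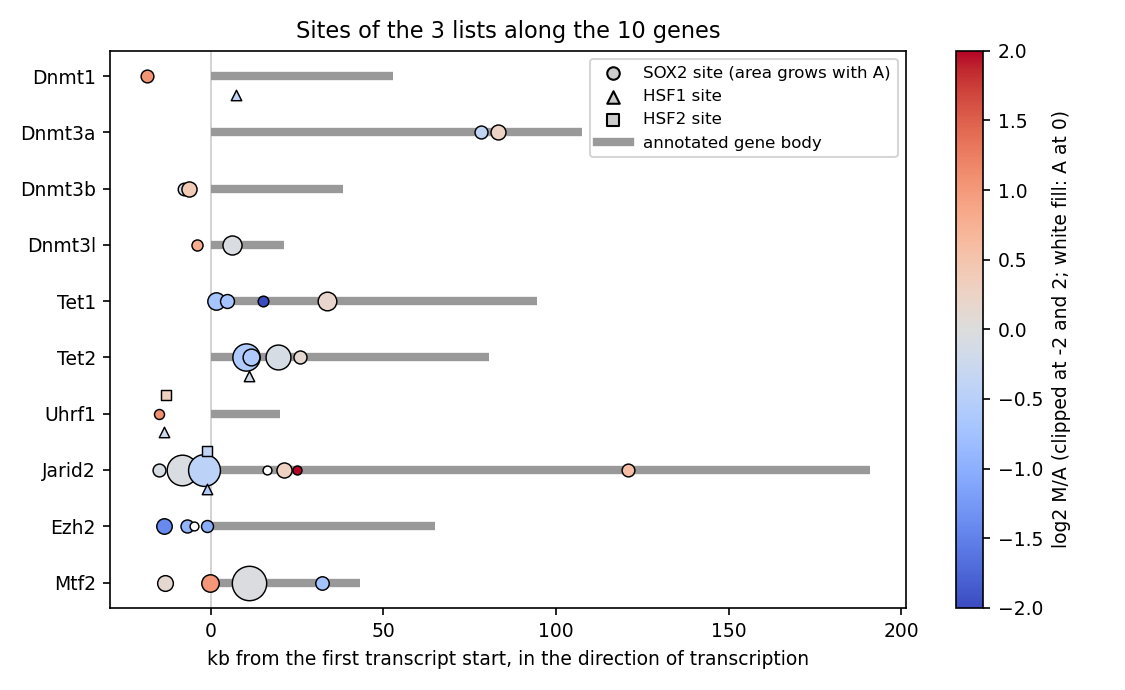
Sites of the 3 lists along the 10 genes, in kb from the first transcript start in the direction of transcription, with the gene body as a grey bar. Fill gives log2 M/A, clipped at -2 and 2, and the area of a SOX2 circle grows with its asynchronous signal. SOX2 sites stand at every gene, and HSF1 and HSF2 sites stand together only at Uhrf1 and Jarid2.

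At the DNA methyltransferase genes and Uhrf1, log2 M/A of SOX2 ran from -0.39 to 1.10 over 8 sites, with M higher at 5 and a median of 0.33. The whole SOX2 list was close to this, with 63.4% of sites with a ratio higher in M and a median of 0.34. The 2 highest ratios of the 8 were those of the Dnmt1 and Uhrf1 sites, each nearer to a start of another gene. Dnmt1 (chromosome 9, 20907209 to 20959888, minus strand) had 1 SOX2 site, 549 bp wide and 18337 bp upstream of a start. It measured 9.72 in A and 20.2 in M (log2 ratio 1.05), and its rank went from 7047 to 4652. This site lay 1444 bp from a start of S1pr2, which encodes a sphingosine 1-phosphate receptor, and so closer to that gene than to Dnmt1. Uhrf1 (chromosome 17, 56303321 to 56323486, plus strand) likewise had 1 site, 14805 bp upstream. It was among the weakest of the 31, at 2.47 in A and 5.30 in M (log2 ratio 1.10, rank 12163 and 10609), and lay within Plin3, a lipid droplet protein gene, 1995 bp from a start of it.

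The de novo methyltransferase genes had SOX2 sites of middle strength. In Dnmt3a both sites were intronic, 4427 bp apart. The first had a signal of 10.2 in A and 7.81 in M (log2 ratio -0.39), and the second 16.7 in A and 20.1 in M (log2 ratio 0.26). Both sites of Dnmt3b lay upstream, 7566 and 5966 bp from a start. The farther had 9.10 in A and 8.34 in M (log2 ratio -0.13), and the nearer 17.3 in A and 22.7 in M (log2 ratio 0.39). At both genes the stronger site in A was the one whose signal was higher in M.

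Dnmt3l had the strongest SOX2 site of the Dnmt genes. It lay in an intron, 1421 bp from a start, with a signal of 32.9 in A and 31.5 in M (log2 ratio -0.06) and ranks of 1881 and 3013. A second site of 99 bp, 3816 bp upstream of Dnmt3l and inside Aire, had 5.12 in A and 8.81 in M (log2 ratio 0.78).

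At Tet1 and Tet2, SOX2 signal was lower in M at 6 of 8 sites, with a median log2 M/A of -0.61. Over the whole SOX2 list, 63.4% of sites with a ratio were higher in M and the median was 0.34. Whether Tet1 and Tet2 differ in log2 M/A from the Dnmt genes or from the list was not tested. All 8 sites were intronic. Near the 5' end of Tet1 (chromosome 10, 62804570 to 62899118, minus strand), a site of 1499 bp that began 700 bp from a start had a signal of 25.8 in A and 15.7 in M (log2 ratio -0.72). Its neighbour of 2974 bp, the widest of the 31, had 13.3 in A and 8.06 in M (log2 ratio -0.72). These 2 sites had the same ratio to 2 decimals. A site of only 24 bp had 4.12 in A and 0.65 in M (log2 ratio -2.67), the largest fall among the 29 sites. The site 14546 bp from a start, whose sequence is given above, went the other way, with 31.0 in A and 35.0 in M (log2 ratio 0.18).

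In Tet2 (chromosome 3, 133463679 to 133544390, minus strand) 2 SOX2 sites stood in the top 10% of the list in A. The first, 9924 bp from a start, had a signal of 76.4 in A and 50.4 in M (log2 ratio -0.60) and went from rank 419 to rank 1663. The second, 19249 bp from a start and holding the 3 CTTTGT cores shown, had 62.2 in A and 57.9 in M (log2 ratio -0.10), with ranks of 655 and 1362. The remaining sites had 23.4 in A and 15.3 in M (log2 ratio -0.61), and 10.4 in A and 11.4 in M (log2 ratio 0.13). The pair closest to the start shared nearly the same ratio, although the signal of one was more than 3 times that of the other.

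At the PRC2 genes Jarid2, Ezh2 and Mtf2, log2 M/A of SOX2 ran from -1.41 to 2.49 over 13 sites with a ratio, of which 5 were higher in M. In the whole list this share was 63.4%. Jarid2 (chromosome 13, 44730774 to 44921643, plus strand) had 2 of the strongest sites, both upstream. The nearer, 1921 bp from a start, had a signal of 108 in A and 79.4 in M (log2 ratio -0.44) and ranks of 190 and 824. The farther, 8196 bp away, had 99.1 in A and 95.7 in M (log2 ratio -0.05) and ranks of 233 and 615. Of the other 5 Jarid2 sites, none exceeded 17.1 in A. A 24-bp site 15096 bp upstream had 10.0 in A and 9.39 in M (log2 ratio -0.09), and intronic sites had 17.1 and 20.7 (log2 M/A 0.27) and 9.69 and 14.5 (log2 M/A 0.58). The 2 weakest intronic sites were almost without signal in A: one was listed at 0 in A and had 1.47 in M, and the other had 0.37 in A and 2.09 in M (log2 ratio 2.49).

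Ezh2 (chromosome 6, 47530139 to 47595030, minus strand) was the only one of the 10 genes at which every SOX2 site with a ratio was lower in M. All 4 of its sites were upstream. From the farthest to the nearest, the first had a signal of 18.5 in A and 6.98 in M (log2 ratio -1.41), falling from rank 3942 to 9448. The second had 10.5 in A and 5.46 in M (log2 ratio -0.94). The third, 24 bp wide, was listed at 0 in A and had 3.02 in M. The fourth, also 24 bp and 961 bp from a start, had 7.54 in A and 3.71 in M (log2 ratio -1.02). The first, the second and the fourth held neither SOX core in their windows of 200 bp, and the window of the third, which reaches beyond its interval, held 3.

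Mtf2 (chromosome 5, 108065742 to 108109004, plus strand) had the strongest site of all, in an intron 10606 bp from a start. It measured 127 in A and 124 in M (log2 ratio -0.04), with ranks of 125 and 403. The site over the start of Mtf2 had 26.0 in A and 53.0 in M (log2 ratio 1.03) and rose from rank 2595 to rank 1558. This was the only SOX2 site of the 31 over a start. The 2 other sites had 19.4 in A and 21.3 in M (log2 ratio 0.14), 13244 bp upstream, and 11.8 in A and 7.12 in M (log2 ratio -0.73), in an intron.

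Across the SOX2 list the mitotic ratio was higher in the lowest quartile of A than in the others. A is also the denominator of the ratio, so the quartiles and the ratio are not independent. Sites in the lowest quartile of A had a median log2 M/A of 1.07 over the list, and those in the other quartiles 0.22, 0.14 and 0.23 in rising order of A. The 29 sites at the 10 genes held 3, 3, 13 and 10 sites of these quartiles, with medians of 1.10, -0.13, 0.13 and -0.08. In the top quartile M was higher at 2 of the 10 member sites and at 61.6% of the list's sites. All 5 member sites in the top 10% of the list in A were lower in M, with log2 M/A from -0.60 to -0.04. Of the 1508 sites in that top 10%, 35.0% were lower in M, and their median was 0.27. Of the 4 sites with log2 M/A at or above 1, those at Uhrf1 and in a Jarid2 intron were in the lowest quartile. Intervals of 24 bp made up 4 of the 31 sites and 4.95% of the list, and included 2 of the 3 sites at or below -1.

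**Figure D3:**
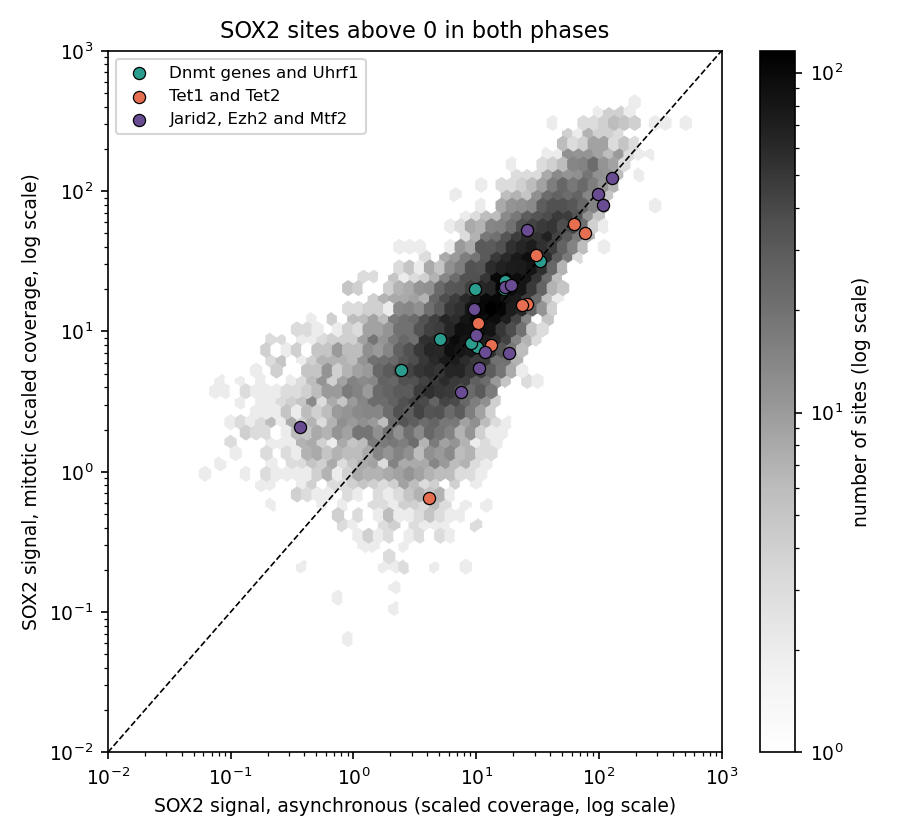
SOX2 signal in mitotic against asynchronous cells (scaled coverage, log axes) for the 14264 sites above 0 in both phases, in grey by number of sites, with the 29 sites of the 10 genes as coloured points. On the dashed line both signals are equal. The strong sites of Tet2, Jarid2 and Mtf2 lie on or just below the line, while the list as a whole lies slightly above it.

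HSF1 signal was lower in M at all 4 sites of these genes, and at none did the score table give a fall of 1 or more on the log2 scale. In the score table the median log2 M/A was -0.32 against -0.62 for the whole list. Relative to the quartile of HSF1 sites weakest by the mean of A and M, whose median was -0.59, all 4 stood higher, by 0.28 at the median. The margin at Jarid2 was only 0.002. In that list 8.11% of sites were higher in M, 0.521% were at or above 1 and 17.7% were at or below -1. At Jarid2, an interval of 3300 bp over a start had a signal of 9.15 in A and 6.07 in M (log2 ratio -0.59), with ranks of 486 and 477. At Dnmt1, an interval over a start, reaching into UTR and coding exon, had 5.57 in A and 4.17 in M (log2 ratio -0.42), with ranks of 956 and 836. At Uhrf1 the values were 4.21 in A and 3.61 in M (log2 ratio -0.22, ranks 1201 and 978), and the interval covered a start of Plin3 rather than of Uhrf1. In the Tet2 intron they were 3.43 in A and 3.09 in M (log2 ratio -0.15, ranks 1331 and 1111).

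The size of the HSF1 fall depended on which of the authors' means was read. The HSF1 site list carries a second pair of means for the same intervals, whose scaling is not described in the sources used here. In these, Jarid2 had 10.7 in A and 1.58 in M (log2 ratio -2.75), Dnmt1 had 7.90 and 1.22 (log2 M/A -2.70), Uhrf1 had 5.81 and 1.25 (log2 M/A -2.22) and Tet2 had 9.31 and 0.72 (log2 M/A -3.69). In that pair the 4 sites had a median of -2.73, below the median of -2.41 for the whole list, and only Uhrf1 stood above it. In the score table the median of the 4 sites, -0.32, stood above that of the list, -0.62. The comparison with the list thus changed direction between the pairs. Both pairs gave a lower signal in M at all 4 sites, but Tet2 had the smallest fall in the score table and the largest in the second pair.

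HSF2 signal went in opposite directions at its 2 sites, although relative to the quartile of HSF2 sites weakest by the mean of A and M, whose median log2 M/A was 0.71, both were lower. At Jarid2, an interval of 3451 bp over a start had a signal of 12.9 in A and 9.92 in M (log2 ratio -0.38), which ranked 230 and 435 of 2135. At Uhrf1, an interval of 3842 bp had 7.18 in A and 8.93 in M (log2 ratio 0.32), with ranks of 525 and 530. That interval covered a start of Plin3 and ended 10954 bp from the nearest start of Uhrf1. The median log2 M/A of the whole list was 0.49, and 72.3% of HSF2 sites were higher in M, 30.1% at or above 1 and 7.26% at or below -1. Both sites were in the top quartile of the list in A, whose median was -0.32 and in which 36.0% of sites were higher in M.

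**Figure D4:**
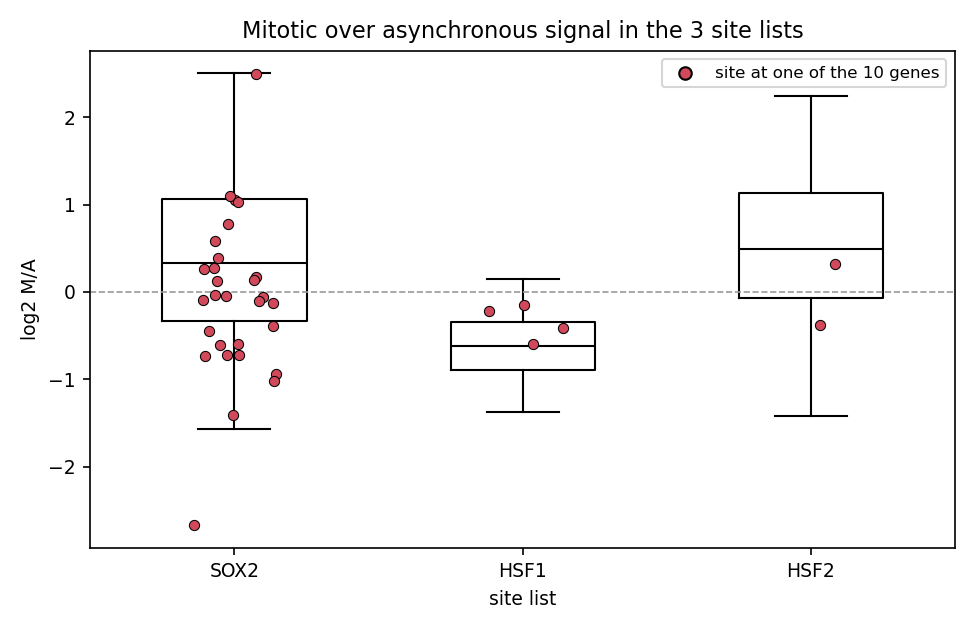
Log2 M/A of all sites with a ratio in the SOX2, HSF1 and HSF2 lists (line, median; box, quartiles; whiskers, 5th and 95th percentiles), with the sites of the 10 genes as red points spread sideways for legibility. The 4 HSF1 points lie between -0.59 and -0.15 and the 2 HSF2 points on either side of 0, and the SOX2 points centre at -0.06, below the list median of 0.34.

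The Halo constructs were measured over the same 2 HSF2 intervals in Hsf2-/- cells. At Jarid2, Halo-H2DBD with anti-HA had a signal of 2.42 in A and 2.47 in M (log2 ratio 0.03), ranking 541 and 645. Halo-HSF2 there had 1.78 in A and 2.36 in M with anti-HA (log2 M/A 0.41), and 1.61 in A and 1.64 in M with anti-HSF2 (log2 M/A 0.02). At Uhrf1, Halo-H2DBD had 0.95 in A and 1.04 in M (log2 ratio 0.13), ranking 1805 and 1750. Halo-HSF2 there had 1.32 in A and 1.44 in M with anti-HA (log2 M/A 0.12), and 1.18 in A and 1.73 in M with anti-HSF2 (log2 M/A 0.55). The Jarid2 interval ranked above the Uhrf1 interval for each construct and antibody in A. In M this order turned with anti-HSF2, for which Jarid2 ranked 1564 and Uhrf1 1504. Wild type HSF2 ranked the Jarid2 site 230, and Halo-HSF2 with anti-HSF2 ranked it 1046, both in A. None of these differences has a replicate check. At Uhrf1 every construct signal stood below the median of the HSF2 sites for that signal, in both phases. HSF2 in knockout cells and the HA control were not analysed here, so the background at these intervals is not known.

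**Figure D5:**
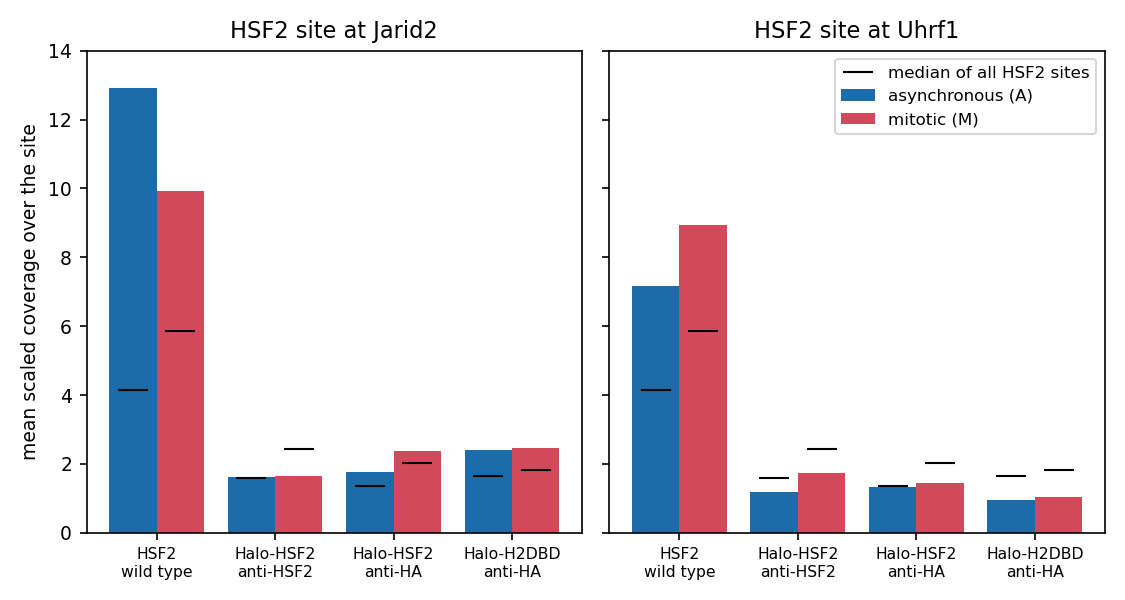
Mean scaled coverage at the HSF2 sites of Jarid2 (left) and Uhrf1 (right) in asynchronous (blue) and mitotic (red) cells for wild type HSF2 and the Halo constructs, as the authors' mean of 2 libraries. Black marks give the median of the 2135 HSF2 sites for the same signal. Wild type HSF2 stands above its list median at both sites, while the constructs at Uhrf1 stand below theirs.

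The sites of the factors met at 3 of the genes. At Jarid2, the HSF1 and HSF2 intervals overlapped each other and the SOX2 site 1921 bp upstream of the start. This was the only one of the 31 SOX2 sites that overlapped an HSF2 interval, and in all 3 factors its signal was lower in M. At Uhrf1 the HSF1 and HSF2 intervals overlapped, and the SOX2 site lay inside the HSF1 interval but 10 bp short of the HSF2 interval. There SOX2 and HSF2 were higher in M and HSF1 was lower. In Tet2 the HSF1 interval took in the 2 SOX2 sites closest to the start, and SOX2 and HSF1 were both lower in M. A heat shock element, taken as 3 inverted GAA units spaced by pairs of any bases, was in none of the 6 HSF intervals at these genes. In windows of 1000 bp about the middle, 11.0% of HSF1 sites and 7.98% of HSF2 sites held one.

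Other genes of the same pathways, from lists of known members, also carried sites. Of 14 further genes of DNA methylation, 10 had a SOX2 site, with 16 sites in all and a median log2 M/A of 0.11. M was higher at 8 of them, 4 were at or above 1 and 0 at or below -1. Over all SOX2 sites with a ratio these shares were 63.4%, 26.8% and 10.0%. Sites in the top 10% of the SOX2 list in A belonged to Tet3, the remaining TET enzyme (42.7 in A and 39.3 in M), Uhrf2, a relative of Uhrf1 (47.7 and 40.1), Mbd3, a subunit of the NuRD complex (43.4 and 50.9), and Trim28, a corepressor of zinc finger proteins. Trim28 had 2 such sites, which moved apart: 110 in A and 80.0 in M at one and 45.8 in A and 216 in M at the other (log2 M/A -0.46 and 2.24). The first of these lay nearer to a start of Zbtb45. The other sites at or above 1 were those of Tdg (2.59), Mbd3 (2.99) and Gadd45b (1.04), named here after their values were seen, of which the Tdg site lay nearer to a start of 1190007I07Rik. That Mbd3 site (2.07 in A) was in the lowest quartile of the SOX2 list in A, whose median log2 M/A was 1.07. HSF1 had 4 sites at 3 of these genes, all lower in M, and HSF2 had 4 sites at 4, all higher in M. Of all sites in these lists, 8.11% were higher in M for HSF1 and 72.3% for HSF2.

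Of 9 further PRC2 genes, 8 had a SOX2 site, with 12 sites, a median log2 M/A of 0.09 and M higher at 6. Over all SOX2 sites with a ratio, 63.4% were higher in M. Among genes of core subunits in the top 10% in A were Suz12 with 114 in A and 58.1 in M (log2 ratio -0.98) and Eed with 69.6 in A and 41.8 in M (log2 ratio -0.73). Ezh1, the homologue of Ezh2, had 45.6 in A and 79.9 in M (log2 ratio 0.81), whereas the 3 Ezh2 sites with a ratio were lower in M. The accessory subunit genes Aebp2 and Epop also had sites in the top 10%. These were 76.7 in A and 76.7 in M and 59.9 in A and 35.2 in M at Aebp2, and 59.0 in A and 116 in M at Epop, in a narrow interval. SOX2 sites at or above 1 were those of Aebp2 (2.01) and Phf19 (1.31), named after their values were seen. That Aebp2 site (1.32 in A) was in the lowest quartile of the SOX2 list in A, whose median log2 M/A was 1.07. HSF2 had 6 sites at 5 of the 9 genes, all higher in M, with a median log2 M/A of 1.38 and 4 at or above 1, where 72.3% of all HSF2 sites were higher and 30.1% at or above 1. Those 4, named after their values were seen, were at Suz12 (2.40), Rbbp4 (1.62) and Phf1 (1.83 and 1.14), and the Phf1 sites were nearer to starts of Kifc5b and Cuta. The sites of Suz12 (1.22 in A), Rbbp4 (2.52 in A) and the first of Phf1 (1.01 in A) were in the lowest quartile of the HSF2 list in A, in which 96.1% of sites were higher in M and the median log2 M/A was 1.34. HSF1 had 2 sites, both at Aebp2 and both lower in M (log2 ratio -1.55 and -0.65). Of all HSF1 sites, 8.11% were higher in M.

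Of 21 genes of Polycomb repressive complex 1 (PRC1), which modifies histone H2A and binds the mark left by PRC2, 12 had a SOX2 site. Their 19 sites with a ratio had a median log2 M/A of 0.55, with M higher at 14, 6 at or above 1 and 1 at or below -1. For all SOX2 sites with a ratio these shares were 63.4%, 26.8% and 10.0%. The top 10% in A held sites at Phc1 (96.5 in A and 151 in M) and Rybp (43.2 in A and 27.5 in M). HSF2 had 11 distinct sites at 8 of these genes, with a median log2 M/A of -0.11. M was higher at 5 of them and 4 were at or above 1, against 72.3% and 30.1% of all HSF2 sites. Those 4, named after their values were seen, were at Pcgf2 (2.29), Cbx7 (1.32 and 1.06) and Rybp (1.01). The sites of Pcgf2 (0.78 in A), Rybp (1.61 in A) and the second of Cbx7 (1.31 in A) were weak. They lay in the lowest quartile of the HSF2 list in A. In that quartile 96.1% of sites were higher in M and the median log2 M/A was 1.34. Of all HSF2 sites, 7.26% were at or below -1. Near Cbx8 and Cbx2, which encode chromodomain subunits of PRC1, sites in the top 10% of the HSF2 list in A had 18.9 in A and 3.80 in M (log2 ratio -2.32) and 32.8 in A and 4.24 in M (log2 ratio -2.95). A weaker site over a start of Cbx2, named after its value was seen, had 4.67 in A and 2.23 in M (log2 ratio -1.06). HSF1 had 2 sites at 2 PRC1 genes, both lower in M, where 8.11% of all HSF1 sites were higher.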

How the data were processed

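CUT&Tag libraries (38, in 19 conditions of 2) were made from JM8 cells, and values for 12 conditions were used. The other 7 (IgG, the HA control, and HSF2 in knockout cells alone or mixed with wild type cells) were not analysed here. According to the study's methods and the submitters' processing notes, the authors aligned reads to mm10 with Bowtie2, kept PCR duplicates and scaled coverage by reads of a Drosophila spike-in. HSF1 and HSF2 sites were peaks called with SEACR over IgG, pooled from both phases, and SOX2 sites came from the literature. The deposited signal is the mean of this scaled coverage over each site, averaged over both libraries by the authors. The tables used here hold no depth and no separate replicates, so no interval, SD or test across libraries was given, and a scaling error shared by a condition would shift all sites of a factor alike. How the second pair of HSF1 means was made is not given in the sources used here.

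From the signal, log2 M/A was computed without a pseudocount where both values were above 0. A site counted as changed at 1 or -1. Ranks run from the highest signal, and repeated intervals were counted once. Genes came from GENCODE M21 basic and sequence from GRCm38. All sites of the 10 genes were named. Genes of the further lists were named where a site was in the top 10% in A, except for a result that is not reported here. The genes and lists were chosen with earlier results of these data known. The calculations were checked on simulated data. Python 3.11.15, numpy 2.4.6, pandas 2.3.3 and pysam 0.24.0 were used. The alternatives were windows of 5 and 50 kb, gene records, merged intervals, pseudocounts of 0.1 and 1, dropping sites that averaged under 1 over the phases, centring on the quartile of sites weakest by the mean of A and M and the second HSF1 means. Alternatives added after seeing the data were a minimum width of 100 bp, medians over genes, leaving out Jarid2 and leaving out sites nearer to another gene.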

Additional observations from a re-analysis of the deposited data

How the results depend on the processing

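The number of SOX2 sites at the 10 genes ran from 22 (starts within 5 kb) to 38 (within 50 kb) around the 31 reported. With starts within 50 kb, HSF1 had 8 sites and HSF2 had 6, and with starts within 5 kb HSF2 had 1. The SOX2 median log2 M/A of -0.06 ran from -0.33, with centring on the quartile of sites weakest by the mean of A and M, to 0.08 as a median over genes, the one setting tried that changed its sign. Centring moved the HSF1 median from -0.32 to 0.28, which turned all 4 sites, and the HSF2 median from -0.03 to -0.74. The centred HSF1 value at Jarid2 was only 0.002. The second pair of HSF1 means gave a median of -2.73. The cause of the difference between the pairs was not tested. Centring took log2 M/A below 1 at Dnmt1 (0.79), Uhrf1 (0.83) and the Mtf2 start (0.76), and took the second Ezh2 site (-1.21) and the last Mtf2 site (-1.001) past -1. A pseudocount of 1 took log2 M/A below 1 in size at Dnmt1 (0.98), Uhrf1 (0.86) and the nearest Ezh2 site (-0.86). No paired analysis was possible because the values used here hold no separate replicates, and for the same reason leaving out each replicate was not run. The values used here carry no depth, so the reads behind those near 0 at narrow sites are not known from them.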
